A study of Homo sapiens with 6 samples.

Results

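The genes of HLA class I antigen presentation were followed across 6 bulk RNA sequencing libraries of NCI-H1975 cells, an established human line from a lung adenocarcinoma. The 9 genes were taken by symbol from the table of 60960 features: the heavy chain genes HLA-B, HLA-C, HLA-E and HLA-F, the light chain gene B2M, the peptide transporter genes TAP1 and TAP2, the loading chaperone gene TAPBP, and NLRC5, the transactivator of class I genes. Each symbol matched 1 Ensembl identifier, and the rule that picked the genes went by name, with earlier results of these data known. The groups were cells with the treatment label siGFPT2 (small interfering RNA, n = 3) and cells with the label siNC (control small interfering RNA, n = 3). GFPT2 encodes an enzyme that makes glucosamine-6-phosphate at the entry of the hexosamine pathway. The labels do not say whether the replicates were separate cultures, so each p-value reflects the spread among these libraries alone, and that spread may be technical. Almonertinib, EGF and an EGFR knockdown appear in the extraction text, but in no treatment label of these libraries.

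Class I molecules show peptides from inside the cell to CD8 T cells, and HLA-E also engages receptors of natural killer cells. A heavy chain folds with B2M in the endoplasmic reticulum, TAP1 and TAP2 together pump peptides in from the cytosol, and TAPBP (tapasin) bridges the transporter and the empty heavy chain. NLRC5 binds with RFX, CREB and NF-Y proteins to the promoters of these genes, and interferons raise most of them through their response elements. In lung tumours, loss of class I expression is a known route of escape from T cells.

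The promoters of these genes are printed first, because NF-Y, RFX-CREB and interferon factors act through promoters of class I and peptide loading genes. A RefSeq table (GRCh38.p14) held windows for 7 of the 9 genes: HLA-B, HLA-C, HLA-F, B2M, TAP1, TAP2 and TAPBP. Shown are the 250 bases before the start in the reference genome, not the alleles of this cell line. They run toward the gene start on the strand of the gene, with motif matches on either strand in capitals. HLA-B lies at chr6:31357180-31357429 (minus strand), HLA-C at chr6:31272093-31272342 (minus), B2M at chr15:44711267-44711516 (plus), TAP1 at chr6:32853705-32853954 (minus) and TAPBP at chr6:33314079-33314328 (minus).
HLA-B: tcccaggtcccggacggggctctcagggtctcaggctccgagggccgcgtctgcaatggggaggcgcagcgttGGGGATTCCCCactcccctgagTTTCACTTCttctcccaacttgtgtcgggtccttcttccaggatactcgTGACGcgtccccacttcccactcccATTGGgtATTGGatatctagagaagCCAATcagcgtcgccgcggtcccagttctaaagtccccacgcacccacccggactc
HLA-C: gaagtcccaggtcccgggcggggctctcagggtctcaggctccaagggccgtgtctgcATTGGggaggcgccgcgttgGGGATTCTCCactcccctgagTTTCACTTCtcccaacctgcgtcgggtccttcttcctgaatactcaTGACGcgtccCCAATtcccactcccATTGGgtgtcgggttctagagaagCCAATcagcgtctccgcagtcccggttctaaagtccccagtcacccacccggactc
B2M: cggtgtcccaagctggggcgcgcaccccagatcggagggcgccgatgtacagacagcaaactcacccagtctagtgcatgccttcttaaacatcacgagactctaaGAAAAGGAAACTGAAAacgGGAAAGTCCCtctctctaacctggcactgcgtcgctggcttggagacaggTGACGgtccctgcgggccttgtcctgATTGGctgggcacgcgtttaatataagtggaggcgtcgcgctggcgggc
TAP1: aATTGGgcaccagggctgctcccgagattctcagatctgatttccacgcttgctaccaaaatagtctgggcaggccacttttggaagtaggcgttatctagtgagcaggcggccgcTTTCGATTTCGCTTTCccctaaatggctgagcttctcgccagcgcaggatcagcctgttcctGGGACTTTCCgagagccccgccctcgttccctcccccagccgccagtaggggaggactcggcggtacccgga
TAPBP: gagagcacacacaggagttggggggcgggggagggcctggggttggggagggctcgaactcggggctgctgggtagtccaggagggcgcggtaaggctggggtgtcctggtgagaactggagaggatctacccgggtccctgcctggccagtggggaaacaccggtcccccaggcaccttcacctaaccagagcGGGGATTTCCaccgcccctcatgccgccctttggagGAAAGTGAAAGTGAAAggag

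The letters of the Y box (ATTGG, bound by NF-Y) were matched at any position in the window. They were present before the start of 5 of the 7 genes, HLA-B, HLA-C, HLA-F, B2M and TAP1, against 32.01% of all 35116 windows in the table. In HLA-B they stood at -81 to -77, -74 to -70 and, on the other strand, -56 to -52. The only match in TAP1 lay at -249 to -245, at the far edge of the window. The interferon-stimulated response element (GAAA, any 2 bases, GAAA) was present in 5 of the 7, HLA-F, B2M, TAP1, TAP2 and TAPBP, against 3.02% of all windows. B2M, TAP1 and TAPBP each held it as a pair of overlapping copies, from -144 to -129, -134 to -119 and -20 to -5. HLA-B and HLA-C lacked that 10-letter form. They held the shorter form GAANNGAAA, at -155 to -147 and -151 to -143, which was also found in TAP2, overlapping its longer form, and in 6.56% of all windows. TGACG, the core of the CRE-like X2 box, was present in 4 of the 7, HLA-B, HLA-C, B2M and TAP2 (21.2% of all windows), and the full TGACGTCA in 0 of the 7 (1.65%). A 10-letter kappa B consensus, which binds NF-kappa B, was matched in HLA-B, HLA-C, B2M, TAP1 and TAPBP (5 of the 7, against 9.96% of all windows). The gamma-activated site (TTCNNNGAA) was matched before a second start of TAP1 only (6.57% of all windows). The shorter interferon form and the kappa B consensus were chosen after the sequences were seen. A match describes letters in the window and not binding.

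**Figure D1:**
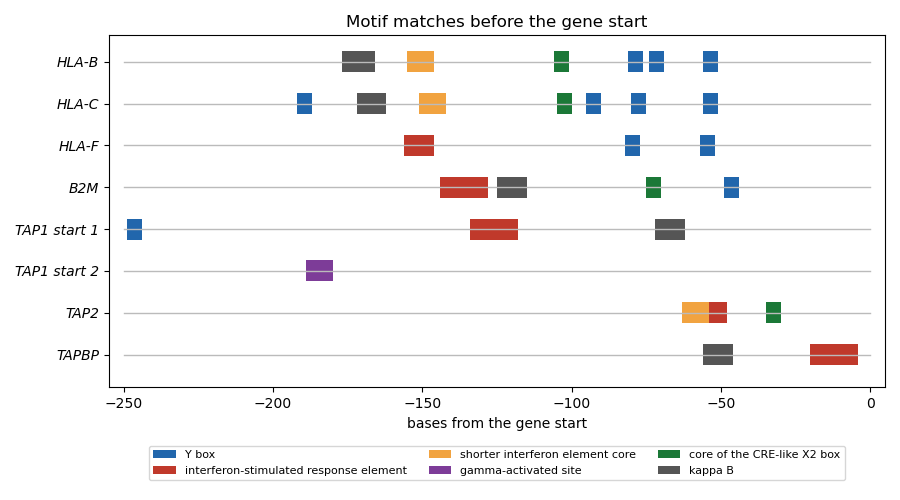
Motif matches in the 250 bases before the gene start of 7 genes (TAP1 with both of its starts), by distance from the start in bases. Bars mark matches on either strand. HLA-B and HLA-C both carry kappa B, the shorter interferon form, the X2 core and then ATTGG (Y box) matches. HLA-C has 1 more ATTGG match at -192.

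Gene levels are the FPKM values the authors deposited, which scale the fragments of a gene by its length and by the depth of the library. In bulk RNA, fewer cells that express a gene and less of its RNA per cell cannot be told apart. The depth read back from the FPKM steps was 22198121 to 27234880 counted fragments in siGFPT2 libraries and 21899321 to 24493042 in siNC libraries. The 9 genes together took 0.208%, 0.248% and 0.215% of the recovered fragments in siGFPT2 replicates 1, 2 and 3, against 0.197%, 0.195% and 0.262% in siNC replicates 1, 2 and 3. siGFPT2 replicate 2 and siNC replicate 3 stood apart from the remaining libraries. Their deviations from the group means correlated at 0.79 across the 12896 features that averaged 1 FPKM or more, which are not independent replicates. In these libraries the level fell with mRNA length, by 0.08 in siGFPT2 replicate 2 and by 0.12 in siNC replicate 3 on the log2 scale per doubling, and in the others it rose, by 0.04 to 0.07. The targeted gene did not separate the labels. GFPT2 stood at 8.94, 7.58 and 8.72 FPKM in siGFPT2, against 10.1, 9.30 and 8.28 FPKM in siNC (log2 fold change -0.13, 95% interval -0.43 to 0.17, limma adjusted p = 0.9999), so siGFPT2 here means the libraries with that label. The epithelial markers KRT7, KRT8, KRT18, KRT19, EPCAM and CDH1 summed to 1480 to 1881 FPKM in siGFPT2 libraries and 1428 to 2086 in siNC libraries. Of the markers of immune cells, which express class I highly, 6 for T and NK cells summed to 0.191 to 0.558 FPKM in siGFPT2 and 0.0695 to 0.273 in siNC, and the B cell marker MS4A1 was listed at 0 in all 6 libraries. CD79A, another B cell marker, was at 40.3 ± 2.75 FPKM in siGFPT2 and 40.2 ± 1.67 in siNC (SD, n = 3 each). Its part in the results was not tested. The 6 myeloid markers summed to 2.45 to 3.00 FPKM in siGFPT2 and 2.44 to 3.44 in siNC, the 3 endothelial markers to 0.256 to 0.405 in siGFPT2 and 0.232 to 0.276 in siNC, and the 4 fibroblast markers to 8.85 to 11.9 in siGFPT2 and 8.46 to 10.4 in siNC.

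None of the 9 class I and peptide loading genes passed the test between siGFPT2 and siNC. With limma on log2(FPKM + 0.1), 0 of 9 had an adjusted p under 0.05 and 0 of 9 an unadjusted p under 0.05, where 0% and 0.651% of the 12896 features did. limma-voom on recovered reads also called 0 of 9. All 9 passed the filter of 1 FPKM, 6 had a log2 fold change above 0 and 3 below, and their median was 0.03, as was that of all features. These directions are not settled, since with median centring the values of HLA-E, HLA-F, TAP2, TAPBP and NLRC5 lay below 0. In 0 of 9 genes were the groups without overlap, against 3.53% of the features tested. The 95% intervals of all 9 lay between -0.58 and 0.58 on the log2 scale, so in this fit each excluded a 2-fold change in either direction in these libraries.

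**Figure D2:**
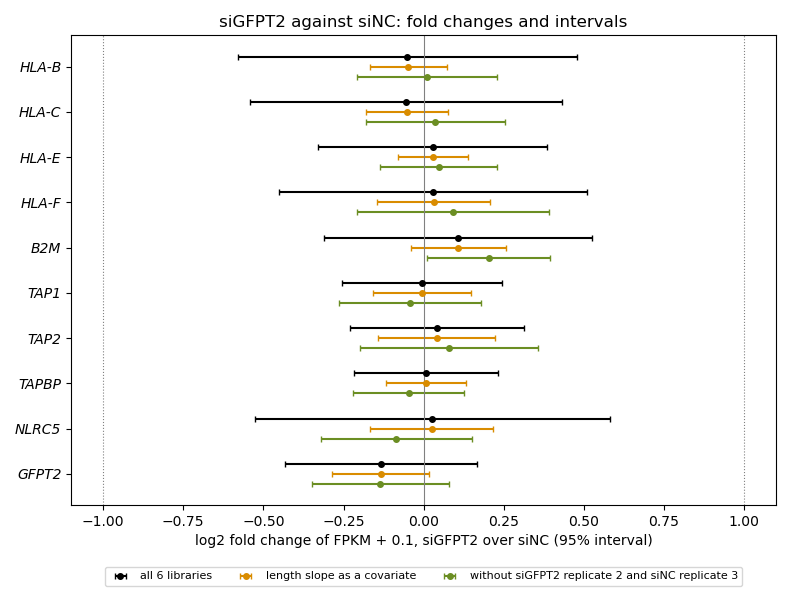
Log2 fold change of FPKM + 0.1, siGFPT2 over siNC, for the 9 genes and GFPT2, with 95% limma intervals from all 6 libraries (black), with the length slope as a covariate (orange) and without siGFPT2 replicate 2 and siNC replicate 3 (green); dotted lines mark a 2-fold change. The black intervals of all 10 genes cross 0. The green one of B2M, 0.01 to 0.40, does not. In that limma fit 751 of 12896 features had an unadjusted p under 0.05, and 0 were called.

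HLA-B (ENSG00000234745; chromosome 6, 31269491 to 31357188, minus strand in GENCODE 29, GRCh38, coordinates of that annotation and not of the deposited table) encodes a classical heavy chain. It stood at 90.2, 123.1 and 91.1 FPKM in siGFPT2 replicates 1, 2 and 3, against 96.8, 83.7 and 139.0 FPKM in siNC replicates 1, 2 and 3. The highest library was a control and the next highest a siGFPT2 library, so the groups overlapped widely. The means were 101.5 ± 18.7 FPKM in siGFPT2 and 106.5 ± 28.9 in siNC (SD, n = 3 each), with a log2 fold change of -0.05 ± 0.22 (SE; 95% interval -0.58 to 0.48) and an exact two-sided permutation p of 0.8, where 0.1 is the smallest possible.

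HLA-C (ENSG00000204525; chromosome 6, 31268749 to 31272130, minus strand), the classical heavy chain that is a main ligand of killer cell immunoglobulin-like receptors, followed the same pattern. It stood at 61.5, 79.2 and 64.3 FPKM in siGFPT2, against 65.6, 57.3 and 93.4 FPKM in siNC, and the log2 fold change was -0.05 (95% interval -0.54 to 0.43). The ratio of HLA-B to HLA-C was 1.48 ± 0.0682 in siGFPT2 and 1.47 ± 0.0139 in siNC, so the levels of both moved together from library to library.

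HLA-E (ENSG00000204592; chromosome 6, 30489467 to 30494205, plus strand) presents leader peptides of other class I chains to the CD94 and NKG2 receptors. It stood at 61.6, 74.9 and 60.5 FPKM in siGFPT2, against 61.4, 56.9 and 75.4 FPKM in siNC. The highest library of each group lay close together, and the other 4 libraries covered 56.9 to 61.6 FPKM. The log2 fold change was 0.03 (95% interval -0.33 to 0.38), the narrowest interval among the heavy chains.

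HLA-F (ENSG00000204642; chromosome 6, 29722775 to 29738528, plus strand), a non-classical heavy chain, was the least abundant of these heavy chains. It stood at 3.45, 4.36 and 3.33 FPKM in siGFPT2, against 3.44, 2.93 and 4.66 FPKM in siNC, from 277 to 512 fragments per library. The log2 fold change was 0.03 (95% interval -0.45 to 0.51). HLA-F-AS1, an antisense gene with exons over those of HLA-F, reached at most 0.514 FPKM, and whether strand was used in counting is not given in the sources used here.

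B2M (ENSG00000166710; chromosome 15, 44711487 to 44718877, plus strand), the light chain without which classical class I does not reach the surface, was the most abundant of the 9. It stood at 211.7, 254.3 and 224.7 FPKM in siGFPT2, against 183.3, 196.0 and 269.8 FPKM in siNC, from 22117 to 37776 fragments per library. The lowest values, and also the highest, were in siNC, so siGFPT2 lay inside the range of the controls. The means were 230.2 ± 21.8 FPKM in siGFPT2 and 216.4 ± 46.7 in siNC, a log2 fold change of 0.11 (95% interval -0.31 to 0.52; exact permutation p = 0.6). Without siGFPT2 replicate 2 and siNC replicate 3 the log2 fold change was 0.20 (0.01 to 0.40, unadjusted p = 0.0424, limma adjusted p = 0.720), the largest among the 9 genes in that fit. Both libraries, set apart by their values in these data, held the highest B2M level of their group. In that limma fit 751 of 12896 features had an unadjusted p under 0.05, and 0 were called. B2M relative to the sum of the 4 heavy chains was 0.977, 0.903 and 1.02 in siGFPT2, against 0.807, 0.976 and 0.864 in siNC, and the groups overlapped.

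**Figure D3:**
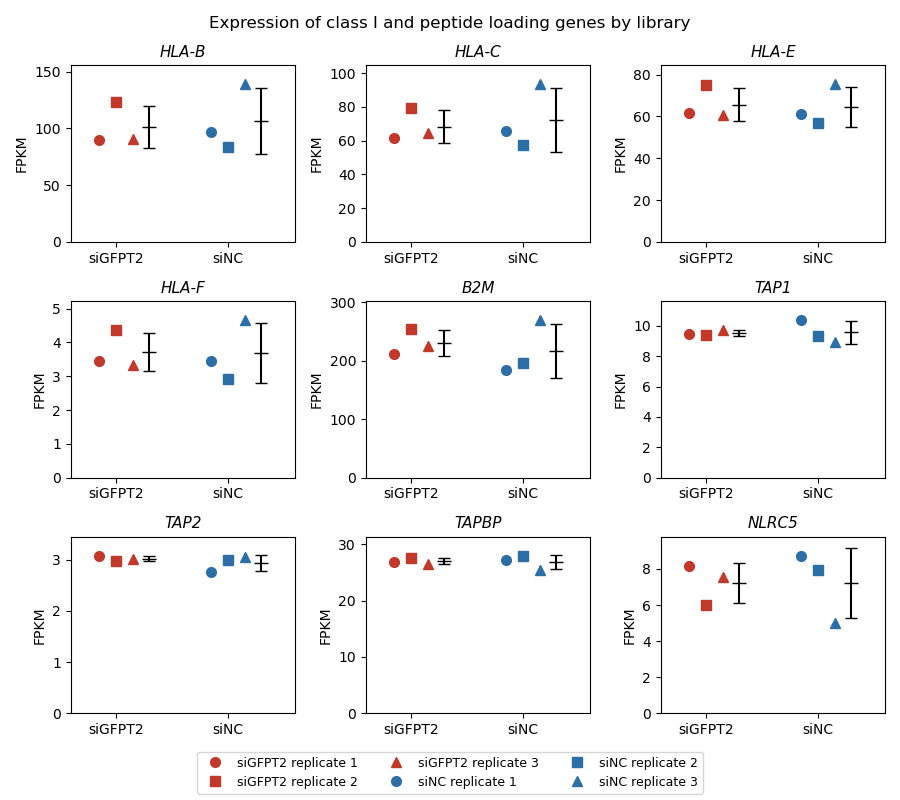
FPKM of the 9 genes in each library (circle, square and triangle for replicates 1, 2 and 3), siGFPT2 on the left and siNC on the right, with the mean and SD of 3 libraries in black; every axis starts at 0. siGFPT2 replicate 2 and siNC replicate 3 are the highest of the 6 libraries for the 4 heavy chains and B2M and the lowest for NLRC5, while TAP1, TAP2 and TAPBP stay within 1.16-fold.

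TAP1 (ENSG00000168394; chromosome 6, 32845209 to 32853978, minus strand), a transporter subunit, varied little. It stood at 9.43, 9.39 and 9.72 FPKM in siGFPT2, against 10.4, 9.36 and 8.94 FPKM in siNC, and the log2 fold change was -0.005 (95% interval -0.25 to 0.25). The siGFPT2 libraries lay within the range of the controls. PSMB8-AS1, with exons antisense to those of TAP1, was at 1.14 to 2.09 FPKM, and without strand the reads of both cannot be told apart.

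TAP2 (ENSG00000204267; chromosome 6, 32821833 to 32838780, minus strand), the partner subunit, stood at 3.08, 2.98 and 3.00 FPKM in siGFPT2, against 2.76, 2.99 and 3.05 FPKM in siNC (log2 fold change 0.04, 95% interval -0.23 to 0.31). Its level is uncertain. In GENCODE 29, 80.2% of the 50-base words of its main transcript also occur in another gene, and the protein-coding gene AL669918.1, with exons over those of TAP2, was listed at 0 in all 6 libraries. The level of TAP1 was 3.15 ± 0.0871 times that of TAP2 in siGFPT2 and 3.28 ± 0.438 times in siNC.

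TAPBP (ENSG00000231925; chromosome 6, 33299694 to 33314387, minus strand) had the lowest ratio between its highest and lowest library of the 9. It stood at 26.9, 27.7 and 26.6 FPKM in siGFPT2, against 27.2, 28.0 and 25.5 FPKM in siNC, and the log2 fold change was 0.01 (95% interval -0.22 to 0.23). The highest library was 1.10 times the lowest.

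NLRC5 (ENSG00000140853; chromosome 16, 56989485 to 57083531, plus strand), the transactivator, ran opposite to the heavy chains. It stood at 8.15, 5.99 and 7.54 FPKM in siGFPT2, against 8.74, 7.92 and 5.01 FPKM in siNC. Its lowest libraries were siNC replicate 3 and siGFPT2 replicate 2, the ones in which its known target genes HLA-B, HLA-C and B2M were highest. Of all features tested, 35.4% were lower in both of these than in the other 4 libraries, and 29.8% were higher. Any link between NLRC5 and those genes was not tested. The means of NLRC5 were 7.23 ± 1.11 FPKM in siGFPT2 and 7.22 ± 1.96 in siNC. Its log2 fold change was 0.03 (95% interval -0.53 to 0.58), the widest interval of the 9.

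In order of FPKM over the 6 libraries, B2M averaged 223.3, HLA-B 104.0, HLA-C 70.2, HLA-E 65.1, TAPBP 27.0, TAP1 9.54, NLRC5 7.23, HLA-F 3.69 and TAP2 2.98. The ranges of HLA-B and HLA-C overlapped, as did those of HLA-C and HLA-E and of HLA-F and TAP2. The ranges of the other neighbours did not. Within single libraries, HLA-B was above HLA-C in 6 of 6, HLA-C above HLA-E in 5 and HLA-F above TAP2 in 5. FPKM divides by a gene length, which for B2M came to 5455 bases by the recovered steps, against 1705 in its main transcript. Per length of the main transcript the same fragments gave 714.5 for B2M, 202.4 for HLA-B, 114.6 for HLA-C, 73.2 for HLA-E and 72.2 for TAPBP. On that scale the range of TAPBP, 68.3 to 75.03, lay inside that of HLA-E, 64.0 to 84.7, so HLA-E and TAPBP do not differ in level beyond their spread. The range of NLRC5, 9.10 to 15.9, then overlapped that of TAP1, 14.0 to 16.3, and that of HLA-F, 7.74 to 12.3. In turn HLA-C, 93.6 to 152.4, no longer overlapped HLA-B, 163.0 to 270.5, or HLA-E.

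The heavy chains and B2M deviated together across the libraries, with deviations measured as log2(FPKM + 0.1) minus the mean of the gene. HLA-B deviated by 0.27 in siGFPT2 replicate 2 and by 0.44 in siNC replicate 3, and HLA-C by 0.20 in siGFPT2 replicate 2 and 0.43 in siNC replicate 3. B2M deviated by 0.20 in siGFPT2 replicate 2 and 0.29 in siNC replicate 3, and NLRC5 by -0.24 in siGFPT2 replicate 2 and -0.49 in siNC replicate 3. In both libraries the levels of 5 of the 9 genes were above those of all 4 others, and the level of 1 of 9, NLRC5, was below, where 29.8% of all features tested were above and 35.4% below. The line fitted on mRNA length over all features gave 0.03 for HLA-B in siGFPT2 replicate 2 and 0.01 in siNC replicate 3, and for NLRC5, whose main transcript has 6822 bases, -0.15 and -0.25. The deviations of HLA-B and NLRC5 lay farther from 0 than this line. Of 6 epithelial markers, 5 were higher in siGFPT2 replicate 2 than in those 4 libraries, and 5 in siNC replicate 3, and their part in these deviations was not tested. With the length slope of each library as a covariate, the interval of HLA-B narrowed to -0.17 to 0.07 and that of NLRC5 to -0.17 to 0.22. In that fit 0 of 9 genes were called. The slope came from the values of these same libraries and set siGFPT2 replicate 2 and siNC replicate 3 apart from the others. Whether mRNA length lies behind the narrowing was not tested.

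**Figure D4:**
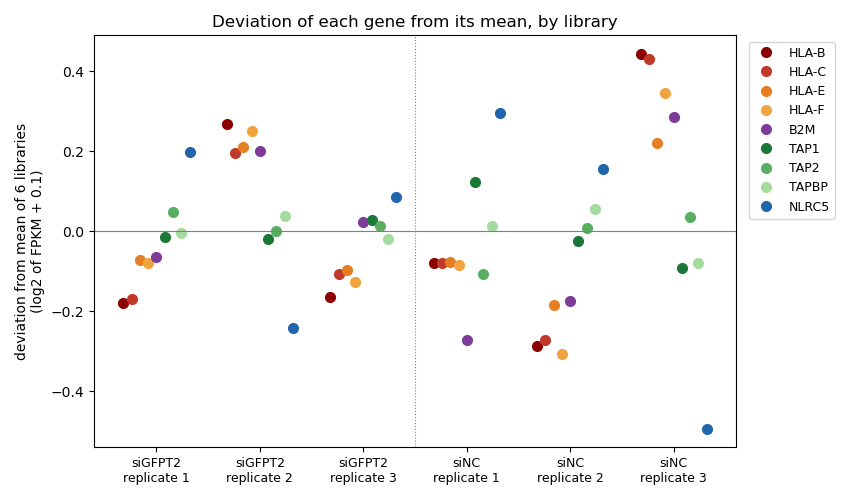
Deviation of each gene from its mean over 6 libraries, on the log2(FPKM + 0.1) scale, siGFPT2 libraries left of the dotted line and siNC libraries right. HLA-B reaches 0.27 in siGFPT2 replicate 2 and 0.44 in siNC replicate 3, where NLRC5 falls to -0.24 and -0.49.

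Among the 9 genes, the closest profiles were those of HLA-B and HLA-C, with a root mean square difference of 0.04 in log2 deviation over the 6 libraries, and the farthest those of HLA-B and NLRC5, at 0.53. HLA-B and HLA-C share 2.00% of the 50-base words of the main HLA-B transcript, and 2.54% of those words occur in any other gene. For HLA-C this share was 6.79%, for HLA-E 5.13% and for HLA-F 1.70%, and for B2M, TAPBP and NLRC5 it was 0%. Exons of HLA-B and HLA-C also overlap in GENCODE 29, so the division of fragments among the heavy chains is uncertain. Outside the 9 genes, 6774 features that averaged 5 FPKM or more were compared. The nearest to HLA-B were PLEKHJ1 (root mean square difference 0.01), FIS1 (0.02) and UBE2S (0.02). The nearest to B2M were CHCHD7 (0.01), PPIL3 (0.02) and ISCU (0.02). Those nearest to TAP1 were PI4KB, TSKU and MARS1 (0.01 each), and those nearest to NLRC5 were PFAS (0.01), ELF4 (0.02) and DENND4B (0.03). FIS1, of mitochondrial fission, stood at 109.96, 152.3 and 113.1 FPKM in siGFPT2, against 120.4, 103.9 and 175.7 FPKM in siNC. PFAS, of purine synthesis, stood at 17.6, 13.2 and 16.7 FPKM in siGFPT2, against 19.3, 17.3 and 11.1 FPKM in siNC. Both genes were picked for their likeness to the HLA-B or NLRC5 profile, so their matching library pattern is not a separate result.

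The genes that supply peptides, proteasome subunits and trimming peptidases, gave 15 measured of 15, with 0 called in either direction, 11 log2 fold changes above 0 and a median of 0.06, against 0.03 over all features. PSMB7 and PSMB6, subunits of the constitutive proteasome, were its most abundant, at 109.9 ± 16.5 and 104.2 ± 23.0 FPKM in siGFPT2, against 111.2 ± 27.3 and 107.0 ± 33.2 in siNC. ERAP1, which trims peptides in the endoplasmic reticulum, was 2.44 ± 0.308 FPKM in siGFPT2 and 2.08 ± 0.610 in siNC (log2 fold change 0.25, 95% interval -0.30 to 0.80), and the cytosolic peptidase TPP2 was 5.32 ± 0.603 FPKM in siGFPT2 and 4.600 ± 0.940 in siNC (0.22, -0.20 to 0.64). PSMB9, an immunoproteasome subunit that lies head to head with TAP1, was named after its values were seen. It stood at 11.95, 16.04 and 11.63 FPKM in siGFPT2, against 12.23, 11.56 and 17.52 FPKM in siNC. Like HLA-B and unlike TAP1, it was higher in siGFPT2 replicate 2 and siNC replicate 3 than in the other 4 libraries. In this list 8 of the 15 genes, PSMB9 included, were higher in both, as were 29.8% of all features tested.

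The assembly and quality control genes gave 8 measured of 8, with 0 called, 5 above 0 and a median of 0.04. CALR (calreticulin), a chaperone of the loading complex, was 385.3 ± 38.9 FPKM in siGFPT2 and 388.9 ± 40.5 in siNC, and GANAB, a glucosidase that trims N-glycans, was 120.3 ± 6.04 FPKM in siGFPT2 and 119.3 ± 16.3 in siNC. CANX (calnexin), which holds the free heavy chain, was 29.6 ± 4.37 FPKM in siGFPT2 and 26.7 ± 5.93 in siNC (log2 fold change 0.16, 95% interval -0.31 to 0.63), and HSPA5 (BiP) had 0.07.

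Of the interferon-gamma signal and class I transactivation genes, 15 of 18 were measured, with 0 called, 9 above 0 and a median of 0.02. RFX5 and RFXANK, subunits of the RFX factor that binds with NLRC5, were 15.7 ± 2.10 and 15.6 ± 3.49 FPKM in siGFPT2, against 14.9 ± 2.86 and 16.0 ± 3.998 in siNC. IFNGR1, an interferon-gamma receptor chain, stood at 6.33, 6.56 and 6.96 FPKM in siGFPT2, against 5.53, 6.29 and 6.11 FPKM in siNC. It was the 1 gene of the list whose groups did not overlap (3.53% of all features), and the log2 fold change was 0.15 (-0.11 to 0.40; limma unadjusted p = 0.226). SOCS1, an inhibitor of this signal, had -0.25 (-0.66 to 0.16). JAK2, RFXAP and CIITA stayed under the filter.

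Other class I-like genes gave 9 measured of 11 (HLA-G and CD1D stayed under the filter), with 0 called, 5 above 0 and a median of 0.03. The NKG2D ligands ULBP2 and MICA led in level, at 11.7 ± 0.685 and 7.91 ± 0.570 FPKM in siGFPT2, against 12.7 ± 0.783 and 8.04 ± 0.920 in siNC. The log2 fold change was -0.12 for ULBP2 and 0.23 (-0.20 to 0.65) for ULBP1, a ligand of the same receptor. Genes that remove class I from the surface gave 7 of 7, with 0 called, 4 above 0 and a median of 0.001. TMEM127 and WWP2, which act with SUSD6 to send class I to lysosomes, had 0.01 and 0.001, SUSD6 had 0.11 and the ubiquitin ligase MARCHF9 had -0.15 on the log2 fold change scale.

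Class II genes were sparse, with 4 measured of 12, 0 called, 4 above 0 and a median of 0.12, HLA-DRA included. CD74, the invariant chain, was 6.33 ± 0.970 FPKM in siGFPT2 and 5.94 ± 0.225 in siNC, with log2 fold changes of 0.06 for HLA-DMA, which loads class II peptides, and 0.16 for the protease CTSS. HLA-DRA, the class II alpha chain, stood at 2.83, 0.502 and 1.52 FPKM in siGFPT2, against 0.691, 0.918 and 0.919 FPKM in siNC, from 17 to 80 fragments per library. Its mean was 1.62 FPKM in siGFPT2 and 0.842 in siNC, so it passed the filter of 1 FPKM only through siGFPT2, and its fold change, and its part in the count and median of the list, are no support for a difference. siGFPT2 replicate 1 was the highest library and siGFPT2 replicate 2 the lowest, so the groups overlapped.

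**Figure D5:**
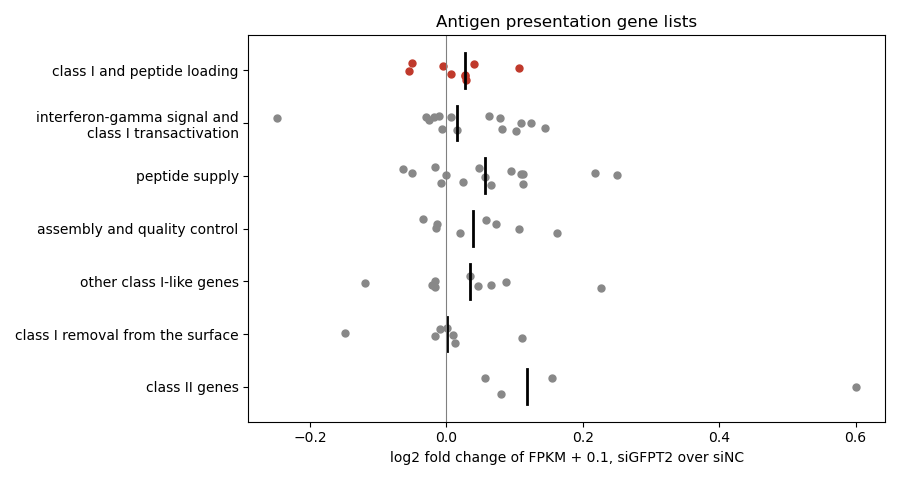
Log2 fold change of FPKM + 0.1, siGFPT2 over siNC, of every measured gene in the 9-gene set (red) and in 6 lists of related genes (grey), with the list median as a black bar. Every median lies between 0.001 and 0.12; the point at 0.60 is HLA-DRA, which passed the filter only through siGFPT2.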

How the data were processed

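The authors deposited 1 table of FPKM values per gene and library. HISAT2, featureCounts and DESeq2 are named, per the submitters' processing notes, and the build and annotation were not given in the sources used here. Columns were matched to samples by name, and symbols were found for 60463 of 60605 Ensembl identifiers. Whole fragments were recovered from the FPKM steps for 36980 of 36981 features above 0 (tolerance 0.0001). For 19937 of them the GENCODE 29 exon length served, and for the rest the smallest length that gave whole fragments, which can understate them.

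Groups were compared on log2(FPKM + 0.1) by limma 3.58.1 (R 4.3.3), with group as the term and a mean-variance trend, two-sided, over the 12896 features averaging 1 FPKM or more. This scale understates fold changes of low genes. Benjamini-Hochberg adjustment ran over all of these features, at a threshold of 0.05. The exact permutation tests used scipy 1.17.1. The fit was also run on simulated counts without outlying libraries, where limma called 59.7% of 1.5-fold changes. The real libraries include siGFPT2 replicate 2 and siNC replicate 3, which stood apart, so this share does not carry over to them. The members and lists were chosen with earlier results of these data known. Named beside the 9 genes and GFPT2 are the 3 nearest profiles of HLA-B, B2M, TAP1 and NLRC5, and in each list the 2 most abundant genes and the 2 with the smallest p. The alternatives changed the pseudocount, filter, scaling, model and libraries used. The marker lists of other cell types were described by summed FPKM, and no set test was run. Proteins were not analysed here.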

Additional observations from a re-analysis of the deposited data

How the results depend on the processing

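Under all 17 alternatives limma called 0 features and 0 of the 9 genes, and GFPT2 kept its direction, with a log2 fold change between -0.21 and -0.06 when 1 library was left out. The count of features at an unadjusted p under 0.05 was 84 of 12896 with all libraries (42 up, 42 down), 754 of 36981 with no filter on low values, 16 of 6781 with a filter at a mean of 5 FPKM, 674 with the length slope as a covariate (459 up, 215 down) and 60 by limma-voom. It was 520 without siNC replicate 3 (421 up, 99 down), 161 without siNC replicate 2 (121 up, 40 down), 54 without siGFPT2 replicate 1, 50 without siGFPT2 replicate 3, and 751 without siGFPT2 replicate 2 and siNC replicate 3 together (514 up, 237 down). The deviations of same-numbered libraries correlated at 0.47 for replicates 1, -0.72 for replicates 2 and -0.57 for replicates 3, so not every pair deviated together and the numbers were not taken as pairs. With the replicate block 0 features were called and 63 had an unadjusted p under 0.05.

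Signs of fold changes this close to 0 turned with the settings, none of them called. With median centring the log2 fold changes were -0.025 for HLA-E, -0.024 for HLA-F, -0.012 for TAP2, -0.045 for TAPBP and -0.025 for NLRC5, with a median over all features of -0.020, against 0.033 uncentred, and 31 of the 90 features under an unadjusted p of 0.05 were above 0, against 42 of 84. With quantile normalization they were -0.012 for HLA-F, -0.0032 for TAP2 and -0.012 for NLRC5. Without siGFPT2 replicate 2 and siNC replicate 3 together they were 0.011 for HLA-B, 0.037 for HLA-C, -0.047 for TAPBP and -0.085 for NLRC5. With 1 library left out, the range was -0.21 to 0.16 for HLA-B, -0.20 to 0.15 for HLA-C, -0.070 to 0.14 for HLA-E, -0.12 to 0.21 for HLA-F, -0.0026 to 0.28 for B2M, -0.051 to 0.056 for TAP1, -0.0021 to 0.069 for TAP2, -0.031 to 0.037 for TAPBP and -0.21 to 0.18 for NLRC5. The cause of these turns was not tested. HLA-F and TAP2, with means of 3.69 and 2.98 FPKM, lay under the filter at a mean of 5 FPKM and gave no value there. The lowest library held 277 fragments for HLA-F, 389 for TAP2 and 5521 for HLA-B, so counting error weighs more on HLA-F and TAP2.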
